A study of Mus musculus with 4 samples.

Results

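Alternative activation is the state that macrophages and related myeloid cells take under interleukin-4 and interleukin-13. These cytokines act through the receptor chain IL-4Rα and the transcription factor STAT6, and the genes they induce in mouse cells include secreted proteins (Retnla, Chil3), the arginine-degrading enzyme Arg1 and C-type lectins that bind sugars (Mrc1, Mgl2, Clec10a). Cd163 and Folr2, a haemoglobin scavenger receptor and a folate receptor, mark tissue-resident macrophages and complete the group of 8 genes described here. Members were found by matching the RefSeq accession of each array probe to these symbols. All 8 had 1 probe each, out of 39426 probes measured on all arrays.

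Their RNA was compared between dendritic cells labelled Rbpj-deficient and control cells. Rbpj is a transcription factor that binds DNA and carries the signal of Notch receptors. The Rbpj-deficient cells (BMDC_RFF11) carried loxP-flanked Rbpj alleles and a cre recombinase under the CD11c promoter, and the control cells (BMDC_RFF) carried the same loxP-flanked alleles without the cre. Both genotypes were C57BL/6, labelled as female and aged 8 weeks. Their bone marrow was cultured in GM-CSF (20 ng/mL) over 6 days, after which CD11c+ cells were taken. A CD11c-driven cre is active only once cells express CD11c. RNA was pooled from 4 mice per genotype and each genotype had 2 arrays, so the p-values measure the spread between arrays, which may be technical. The genotypes differ in the cre as well as in Rbpj, and the 2 cannot be told apart, because no array holds the cre with intact Rbpj.

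Rbpj read 1.37 and 1.44 on the RFF11 arrays, against 2.69 and 2.61 on the RFF arrays (log2 change -1.25, limma adjusted p = 0.0278), so the RFF11 arrays held 42.1% of the RFF signal. Whether this probe lies in the deleted part of the gene is not given in the sources used here. Levels are given as log2 units above or below the 75th percentile of signal on each array, and changes are RFF11 minus RFF. Of the spots for genes, 57.7% to 58.4% were well above background in RFF11 and 55.2% to 58.1% in RFF. All 9 dendritic cell markers matched on the array were well above background on all 4 arrays, among them Itgax, H2-Ab1 and Cd74. So were 20 of 23 resident macrophage markers, while Lyve1, Timd4 and Vsig4 were above it on none. In these bulk RNAs, fewer cells of a type and less RNA per cell cannot be told apart.

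The members fell into 3 sets by detection. Chil3, Mrc1, Mgl2 and Clec10a were well above background on all 4 arrays. Retnla was well above background on both RFF arrays and on neither RFF11 array. Arg1 and Cd163 were not well above background on any array, and Folr2 was on 1 RFF11 array only. Of the 8 members 5 entered the test, and 1 passed the threshold, a limma p below 0.05 after adjustment over all 17973 genes tested (lower in RFF11), none rose, and 4 of the 5 did not pass. Over all genes 1.88% passed, 0.84% lower and 1.04% higher in RFF11, and over all probes 1.73% passed. Before adjustment 4 of the 5 had a limma p below 0.05, as did 24.1% of all genes. Retnla entered through the RFF arrays alone and had to differ to do so, and the count of members is therefore no support of a group change.

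**Figure D1:**
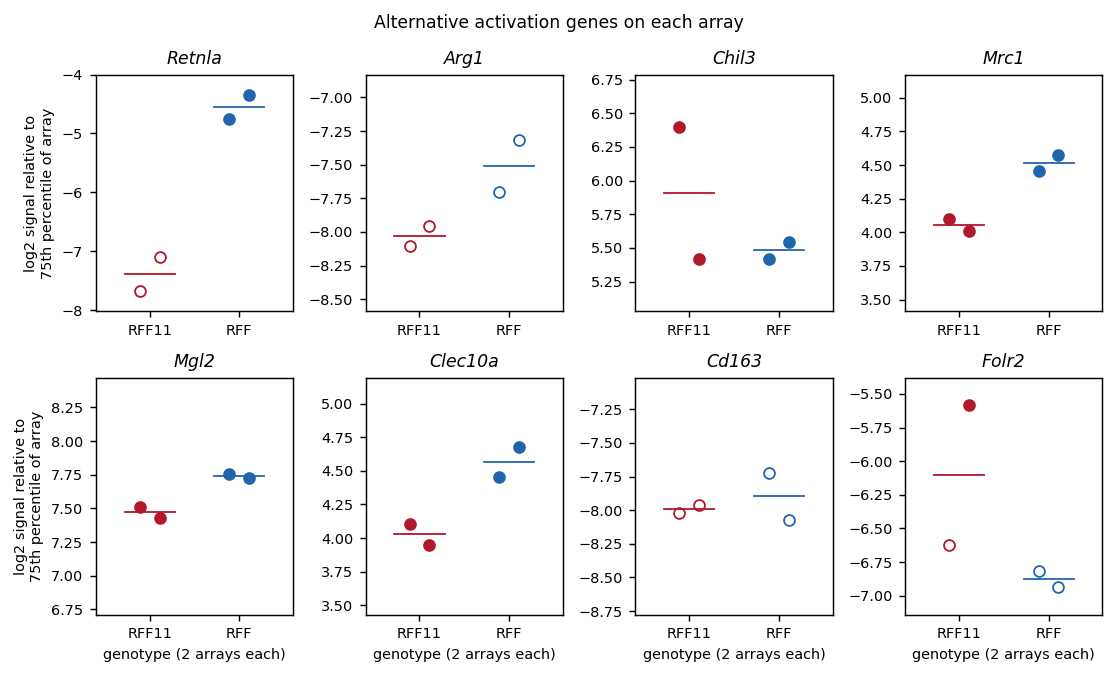
Level of each of the 8 genes (vertical axis, log2 units from the array's 75th percentile of signal, scale differing by panel) on the 2 RFF11 arrays (red, left) and the 2 RFF arrays (blue, right), with the mean as a line. Filled points were well above background, open points were not. Retnla is filled in RFF alone, Chil3 is high on 1 RFF11 array, and Mrc1, Mgl2 and Clec10a lie lower on both RFF11 arrays than on both RFF arrays.

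Retnla encodes RELM-alpha (FIZZ1), a small cysteine-rich protein secreted by alternatively activated macrophages. Its level was -7.67 and -7.10 in RFF11, against -4.75 and -4.35 in RFF. Both RFF11 arrays lay below both RFF arrays. As processed signal this was 7.07 and 10.6 units in RFF11, against 50.9 and 69.9 units in RFF. In RFF too it was dim, the lowest signals well above background on those arrays being 30.3 and 25.2 units. On the RFF arrays 48.2% and 51.1% of probes were dimmer than Retnla. The lowest signals well above background on the RFF11 arrays were 23.4 and 26.8 units, so Retnla was not measured there. Set against these lowest signals, Retnla was 2.47-fold lower in RFF11, or 1.30 on the log2 scale. This fold was not tested and is not a strict bound. Some brighter signals were not well above background either, such as Chil1 at 37.0 units on RFF11 replicate 2. The fitted change of -2.84 (SE 0.25, limma adjusted p = 0.0379) uses RFF11 signals below those lowest signals. The size of this change and its rank among genes were therefore not measured. Retnla also entered the test through the RFF arrays alone. Its p-values under this filter therefore describe the fit and are no support of a change. With the normexp background, which adds an offset to every signal and shrinks dim genes, the change was -0.71 (adjusted p = 0.0231). Leaving out any 1 of the 4 arrays ended the call, with changes between -3.12 and -2.55 and adjusted p between 0.0979 and 0.137. It was also lost with the replicate number as a block in the fit (adjusted p = 0.0675) and without the filter on dim probes (adjusted p = 0.26), in each case with the change still at -2.84. Filtering on all 4 arrays removed the gene from the test.

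The 250 bases before the annotated start of Retnla are shown because the gene is the 1 member that passed, together with those of Chil3, the other member with a motif match. They come from RefSeq on GRCm38.p6, chr16:48842359-48842608 on the plus strand for Retnla and chr3:106167565-106167814 on the minus strand for Chil3, 5′ to 3′, with motif matches in capitals.
Retnla: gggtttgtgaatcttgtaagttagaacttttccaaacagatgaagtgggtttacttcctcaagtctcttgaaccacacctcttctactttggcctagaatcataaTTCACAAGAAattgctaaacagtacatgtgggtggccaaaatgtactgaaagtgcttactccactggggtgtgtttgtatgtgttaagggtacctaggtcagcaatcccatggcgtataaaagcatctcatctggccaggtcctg
Chil3: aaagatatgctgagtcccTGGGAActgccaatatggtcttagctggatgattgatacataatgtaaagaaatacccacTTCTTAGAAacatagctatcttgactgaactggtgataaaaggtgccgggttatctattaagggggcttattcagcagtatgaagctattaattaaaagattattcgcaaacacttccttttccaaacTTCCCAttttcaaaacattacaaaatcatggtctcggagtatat

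Both strands were searched for the RBPJ motif TGGGAA and for the STAT motif TTC and GAA spaced by 4 bases, which STAT6 favours, or by 3 bases, shared with other STAT factors. The Retnla window held 1 match to the 4-base spacing, starting 145 bases before the start, and none to TGGGAA. The Chil3 window held 2 matches to TGGGAA, at 232 bases and, on the opposite strand, at 44 bases, and 1 to the 3-base spacing at 172 bases. The windows of Mrc1, Mgl2, Cd163 and Folr2 held none of the 3 motifs, Folr2 being searched at both of its annotated starts. No match overlapped another. In the same window TGGGAA was held by 21.6% of all 32851 RefSeq promoters, the 4-base spacing by 5.85% and the 3-base spacing by 7.02%. The table matched 6 members by symbol, not Arg1 or Clec10a. Each motif was found in 1 of the 6, and the matches describe letters in these windows alone.

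The 3 lectin genes of the group lay lower on both RFF11 arrays than on both RFF arrays and did not pass the threshold. Over all genes tested 32.3% lay lower in RFF11 without overlap, and 59.1% did not overlap in either direction. Mrc1, the mannose receptor CD206, which takes up glycoproteins that end in mannose, read 4.10 and 4.01 in RFF11, against 4.46 and 4.58 in RFF. Its change was -0.46 (SE 0.07, adjusted p = 0.0679), with a 95% interval for the single gene of -0.67 to -0.26, or 72.5% of the RFF signal. Of the 17973 genes 4.15% had a lower change. It passed with normexp (adjusted p = 0.043) and with a variance prior that follows signal and is robust to outlying genes (adjusted p = 0.0143). These settings called more genes of every kind, 892 and 1547 of the 17973, against 338 as reported.

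Clec10a (MGL1, CD301a), a macrophage lectin for galactose-type sugars, read 4.11 and 3.95 in RFF11, against 4.45 and 4.68 in RFF. The genotypes did not overlap, and the change was -0.54 (SE 0.11, adjusted p = 0.0939, single-gene interval -0.84 to -0.23). Mgl2 (MGL2, CD301b), its paralogue, read 7.51 and 7.43 in RFF11, against 7.75 and 7.73 in RFF. That is a narrow shift, with RFF11 at 82.9% of the RFF signal, and the change was -0.27 (SE 0.06, adjusted p = 0.107, single-gene interval -0.44 to -0.10). With the robust prior both passed (Clec10a adjusted p = 0.0318, Mgl2 adjusted p = 0.0477), the variance prior being the 1 setting of those tried that did so. Under that prior 1547 of the 17973 genes passed, against 338 as reported.

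Mgl2 and Clec10a are adjacent on chromosome 11 in the RefSeq gene order of GRCm38.p6. Taken within each array, Mgl2 minus Clec10a was 3.41 and 3.48 log2 units in RFF11, against 3.30 and 3.05 in RFF. RFF11 minus RFF was 0.26, with a pooled SD between arrays of 0.13. An exact two-sided permutation test gave p = 0.333, the smallest that 2 against 2 arrays allow, so it could not pass at any difference and says nothing about whether the pair changed equally. Asgr2, a chain of the asialoglycoprotein receptor, is a relative of both and lies next but one to Mgl2. It read 6.73 and 6.92 in RFF11, against 7.19 and 7.31 in RFF (log2 change -0.43, adjusted p = 0.104). Asgr1, the other chain, was not well above background on any array.

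Chil3 (Ym1), a chitinase-like protein secreted by alternatively activated macrophages and also made by cells of the neutrophil lineage, differed between the 2 RFF11 arrays more than between genotypes. It read 6.40 and 5.41 in RFF11, against 5.42 and 5.54 in RFF. Replicate 1 of RFF11 stood above the other 3 arrays, and replicate 2 lay close to both RFF arrays. The gap of 0.99 between the RFF11 arrays was larger than that of 99.2% of genes tested, while the RFF gap of 0.12 was larger than that of 65.4%. The change of 0.43 did not pass (SE 0.35, adjusted p = 0.507, single-gene interval -0.55 to 1.40). Without RFF11 replicate 1 it was -0.07, and without RFF11 replicate 2 it was 0.92 (adjusted p = 0.162).

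Chil4 (Ym2), a near-identical copy of Chil3 whose RNA may bind the same probe, had the same array high. Its level was -0.66 and -1.66 in RFF11, against -1.82 and -1.62 in RFF (log2 change 0.56, adjusted p = 0.406). Its RFF11 gap was 0.996. Because of their likeness the 2 genes are not independent readings. Neutrophil and granule markers were higher in sum in RFF11. Their summed linear level over 16 genes was 89.6 and 83.3 in RFF11, against 65.6 and 65.2 in RFF, with 13 of 16 well above background on all arrays and Mmp9 and Retnlg on none. S100a8 and S100a9, which did not pass (adjusted p = 0.0712 and 0.0813), made up 42.0 and 33.2 of these sums in RFF11, against 19.3 and 22.4 in RFF. The other 14 genes summed to 47.6 and 50.05 in RFF11, against 46.3 and 42.9 in RFF. Of 14 tested, Ngp (0.54, adjusted p = 0.0445) and Mpo (0.74, adjusted p = 0.0378) rose and none fell. The median of the 14 tested was 0.55, against -0.01 over all genes, with 11 above 0 and 3 below. Without overlap 11 lay higher and 2 lower in RFF11, against 26.8% and 32.3% of all genes. On RFF11 replicate 1, the array with more Chil3, 4 of the 14 were higher than on replicate 2, as were 8 of 9 dendritic cell and 15 of 20 resident macrophage markers. The part of these markers in the Chil3 values was not tested.

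Arg1 and Cd163 gave no measurable level in either genotype. Arg1, which turns arginine into ornithine and urea, read 5.23 and 5.84 units in RFF11, against 6.57 and 8.94 units in RFF. Cd163 read 5.55 and 5.80 units in RFF11, against 6.50 and 5.30 units in RFF. All 8 readings lay under the lowest signal well above background on their array (23.4 to 30.3 units). Folr2 read 14.6 and 30.2 units in RFF11, against 12.2 and 11.6 units in RFF, and replicate 2 of RFF11 alone was well above background. No fold is given for these 3 genes. Included in a test without the filter, they had adjusted p values of 0.455 for Arg1, 0.761 for Cd163 and 0.624 for Folr2.

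**Figure D2:**
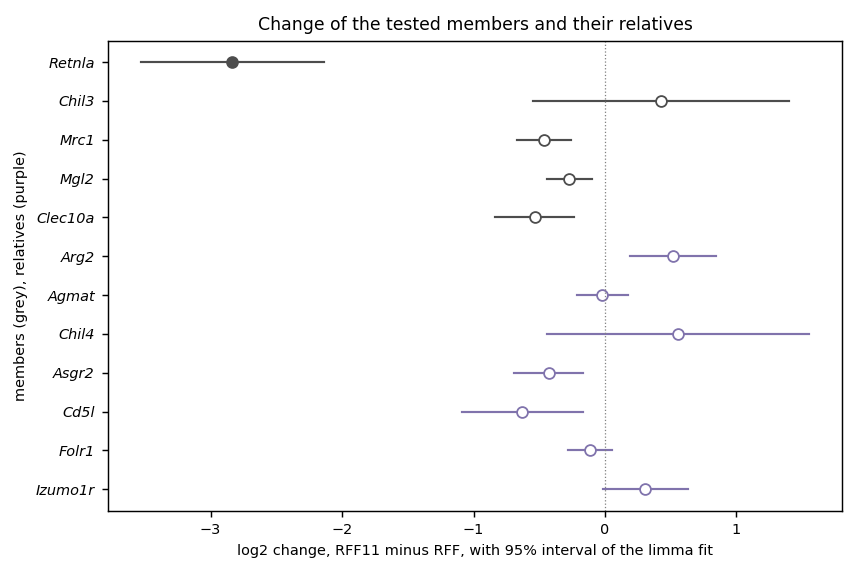
Log2 change (horizontal axis, RFF11 minus RFF, 2 arrays each) of the 5 tested members (grey) and the 7 tested relatives (purple), with the 95% interval of the limma fit for the single gene. Filled points passed the threshold over all genes. The fitted value of Retnla, -2.84, uses RFF11 signals that were not well above background. Mrc1, Mgl2 and Clec10a lie between -0.54 and -0.27, and Chil3 and Chil4 have the widest intervals.

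Relatives of the members were mostly at background. Of 21 on the array 12 were well above background on no array, among them the other resistin-like genes Retn, Retnlb and Retnlg. The 7 that were tested gave no call in either direction (median -0.02, against -0.01 over all genes). Arg2, the mitochondrial arginase, read -3.26 and -3.50 in RFF11, against -3.99 and -3.80 in RFF (log2 change 0.52, adjusted p = 0.11), and 0.27 with normexp. Cd5l, a secreted scavenger protein of the same domain family as Cd163, stood at -0.63 (adjusted p = 0.138). Folr1 (-0.11), Izumo1r (0.31) and Agmat (-0.02) lay closer to 0 without passing.

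The pathway upstream of these genes showed no call among its receptors and signal carriers. None of 14 tested genes passed (median -0.09), and Il4 itself was the farthest from 0 (-0.34, adjusted p = 0.152) at a dim level. The 14 included Il10ra (0.22) and Csf1r (0.04), receptors for other cytokines, which enter this count and median. The receptor chain Il4ra read 1.86 and 1.81 in RFF11, against 2.18 and 2.17 in RFF (log2 change -0.34, adjusted p = 0.0716). Stat6 differed little between the genotypes (log2 change -0.07, adjusted p = 0.481). Of 14 regulators of alternative activation, Kdm6b, a histone H3K27 demethylase, rose (0.56, adjusted p = 0.0434) and none fell. The remaining 13 did not pass, with Pparg at -0.57 (adjusted p = 0.084), Klf4 at -0.53 (adjusted p = 0.081) and Irf4 at -0.26 (adjusted p = 0.183). Myc stood the other way, at 0.32 (limma adjusted p = 0.0794). Of the 14 regulators, 10 lay below 0 and 4 above. The median of these regulators was -0.11.

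Other genes known to be induced by interleukin-4 included 21 tested, of which 4 rose and none fell. The remaining 17 missed the threshold, and the median was -0.28 with 12 of 21 below 0. The chemokine Ccl24 read -2.29 and -2.31 in RFF11, against -5.15 and -5.61 in RFF, a rise of 3.08 (adjusted p = 0.0289). With normexp the change was 1.74. The RFF signals of Ccl24, 38.7 and 29.1 units, lay near the lowest well above background on those arrays (30.3 and 25.2 units). The size of the rise is therefore uncertain. The adhesion molecule Cdh1 (0.67, adjusted p = 0.0379), the receptor antagonist Il1rn (0.69, adjusted p = 0.0379) and the kinase Matk (0.56, adjusted p = 0.0393) also rose. Tgm2, transglutaminase 2, stood at 1.07 (adjusted p = 0.0640), while the chemokines Ccl17 (-0.28, adjusted p = 0.0902) and Ccl22 (-0.78, adjusted p = 0.0507) stood below 0 without passing.

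The classical, interferon- and endotoxin-driven programme set against alternative activation had 15 tested genes with a median of 0.15. Il1b rose (1.21, adjusted p = 0.0379), the chemokine Ccl5 fell (-0.85, adjusted p = 0.0322) and 13 did not pass. Nos2, which competes with arginase for arginine, read -2.85 and -2.81 in RFF11, against -3.02 and -2.96 in RFF (log2 change 0.16, adjusted p = 0.207). Among 20 genes of arginine and polyamine metabolism (median 0.01), Gatm, which uses arginine to make the precursor of creatine, fell. It read -1.35 and -1.28 in RFF11, against -0.47 and -0.48 in RFF (log2 change -0.84, adjusted p = 0.0322), and the other 19 did not pass.

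Resident macrophage markers, the company in which Cd163, Folr2 and Mrc1 are usually found, had a median of -0.15 over 20 tested. The Fc receptor Fcgr1 (-0.61, adjusted p = 0.0424) and the growth factor Igf1 (-0.60, adjusted p = 0.0434) fell, none rose and 18 did not pass. The 4 probes of Igf1 ranged from -0.60 to -0.34. The summed level of the 23 markers was 390 and 383 in RFF11, against 381 and 411 in RFF. Csf1r, the brightest of them, weighs most in this sum and read 7.32 and 7.31 in RFF11, against 7.27 and 7.27 in RFF. Among the 20 tested, 9 lay lower and 5 higher in RFF11 without overlap, against 32.3% and 26.8% of all genes. Whether resident macrophages were present, and their part in the values of the members, was not tested. The complement chains C1qa (-0.14), C1qb (-0.20) and C1qc (-0.11), abundant macrophage products, did not pass. F13a1 was the farthest from 0 in this list (-1.04, limma adjusted p = 0.0641) and did not pass either. Of the 20 tested, 13 lay below 0 and 7 above. None of the 9 dendritic cell markers passed (median -0.10), and Cd209a was the farthest from 0 (-1.33, adjusted p = 0.159).

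**Figure D3:**
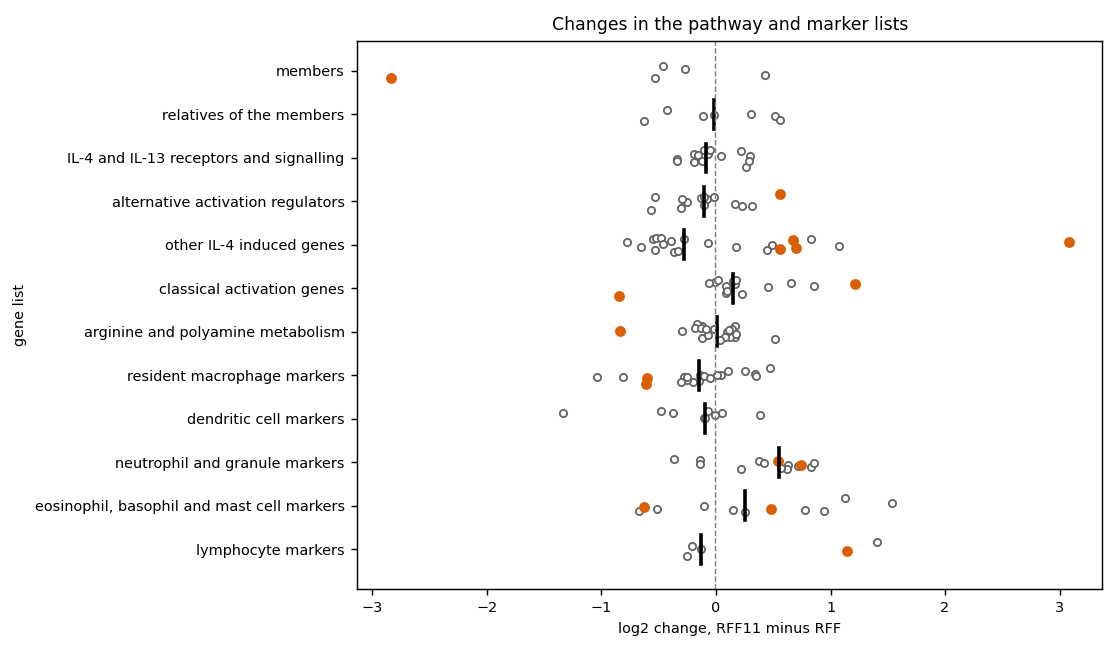
Log2 change (horizontal axis, RFF11 minus RFF) of each tested gene in the members and the 11 pathway and marker lists (rows), with genes past the threshold in orange, the others open, the median of each list other than the members as a black bar and the median of all genes tested (-0.01) as a dashed line. Ccl24 lies at 3.08, with RFF signals near the lowest well above background. The Retnla point at -2.84 rests on RFF11 signals not well above background. Set against the lowest signals well above background there, Retnla was 1.30 log2 units lower, which is not a strict bound.

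**Figure D4:**
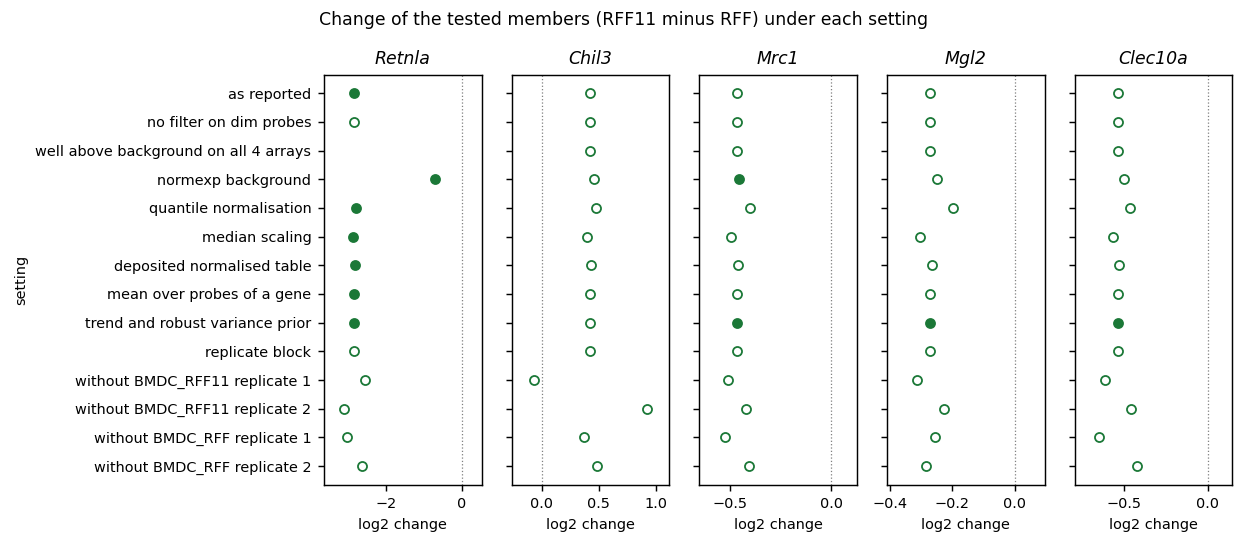
Log2 change (horizontal axes, RFF11 minus RFF, scale differing by panel) of the 5 tested members under each processing setting (rows), filled where limma's adjusted p was below 0.05. Retnla shrinks to -0.71 with normexp and is open in the 6 settings named in the text, and Chil3 crosses 0 without RFF11 replicate 1.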

How the data were processed

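Cy3-labelled RNA was read on 1-colour Agilent mouse arrays, 1 per sample, all on 1 slide, each genotype at its own positions, whose part cannot be told apart from genotype. The deposited intensity values were made by the authors with Agilent Feature Extraction 10.7.1.1, per the file headers, with background subtracted, trends removed and no scaling between arrays. The flags (other values, 0 or 1) are those of that software, per the file headers. Outlier spots (127 to 176 per array) were left out, and 0 were saturated. The deposited normalised log2 values are the authors' own, and how they were scaled is not given in the sources used here. They matched the scanner signal centred per probe (r of at least 0.99995 over 39426 probes, same direction, column medians -0.0339 and 0.0202 for RFF11, 0.0528 and -0.0305 for RFF), and their exact scaling is unknown.

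Signal was taken to log2 and reduced by the 75th percentile of each array over spots for genes. A probe was kept where 1 genotype or both had it well above background on each of their arrays, and the brightest kept probe stood for its gene. Genotypes were compared with limma 3.58.1 in R 4.3.3, adjusted (Benjamini-Hochberg) over 17973 genes at a threshold of 0.05. SE and intervals are those of this fit. Adjusted over the 22043 probes kept, the calls of the 5 members were the same. The deposited files lacked a mean spot signal, so the normexp alternative used the median one (offset 50). Probes were named through RefSeq of GRCm38.p6 (26054 with 1 symbol, 13372 with none). The procedure was tested on simulated data. Tables and drawings used Python 3.11.15.

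The members and lists were chosen with earlier results of these data known. Named are all members and tested relatives and, in each list, the genes that passed or else the one farthest from 0. Genes named beyond this rule (Il4ra, Il10ra, Csf1r, Stat6, Pparg, Klf4, Irf4, Myc, Tgm2, Ccl17, Ccl22, Nos2, C1qa, C1qb, C1qc, F13a1, H2-Ab1, Cd74, S100a8, S100a9, Ear1 and Chil1) and markers at background were named after their values were seen. Alternatives were the probe filter, background correction, scaling, deposited table, probe choice, variance prior, replicate block and leaving out each array.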

Additional observations from a re-analysis of the deposited data

How the results depend on the processing

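Of the alternatives, quantile normalisation, median scaling, the deposited table and the mean over probes kept the direction and the side of the threshold of all 5 tested members. The deposited table follows the same scanner signal, and each member has 1 probe. Neither of these last settings is therefore an independent check. With limma, 338 genes, 1 member and 15 list genes passed as reported. Without the filter on dim probes and with the replicate block, the counts were 0, 0 and 0, although 3654 and 3677 genes had unadjusted p values under 0.05, and Retnla stayed at -2.84 without passing. The differences between replicate 1 and replicate 2 correlated at -0.05 between the genotypes over genes, so the numbers did not pair the arrays. With the filter on all 4 arrays 0 members passed, as Retnla left the test. With normexp the counts were 892 genes, 2 members and 34 list genes, Mrc1 passing at -0.46. With the trended robust prior they were 1547, 4 and 47, with Mrc1 at -0.46, Mgl2 at -0.27 and Clec10a at -0.54. Leaving out 1 array gave 0 to 136 genes, 0 to 0 members and 0 to 1 list genes (2960 to 3588 genes had unadjusted p values under 0.05), since an arm of 1 array took its spread from the other arm. Retnla was then at -3.12 to -2.55 without passing, and Chil3 at -0.067 (without RFF11 replicate 1, reversed) to 0.92, while Mrc1, Mgl2 and Clec10a kept their sign. Signal over background limits Retnla, Arg1, Cd163 and Folr2, and 2 arrays per genotype limit all values.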

Other observations

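Genes of eosinophils, basophils and mast cells, other cells of type 2 immunity, went both ways in Rbpj-deficient cells. Of 11 tested, the histamine-forming enzyme Hdc rose (0.48, limma adjusted p = 0.0477), Siglecf fell (-0.63, adjusted p = 0.0379) and 9 did not pass (median 0.25). Epx, Prg3, Ccr3, Fcer1a and Ms4a2 did not enter the test. The summed level of the 16 markers was 15.4 and 14.7 in RFF11, against 17.6 and 22.5 in RFF. Ear1 alone, which did not pass (adjusted p = 0.221), made up 9.58 and 9.15 of these sums in RFF11, against 11.1 and 16.0 in RFF. Of 5 lymphocyte markers tested only Klrb1c passed, and it rose (1.14, adjusted p = 0.0379).

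The lectin gene Cd209a, named here after its values were seen, was also higher on RFF11 replicate 1 than on replicate 2, as Chil3 and Chil4 were. It read 3.39 and 2.29 in RFF11, against 4.17 and 4.17 in RFF, and the RFF11 gap of 1.11 exceeded that of 99.5% of genes tested.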
